A study of Mus musculus with 35 samples.

Results

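The Fos and Jun families of transcription factors, which pair to form activator protein 1 (AP-1), and their relatives Atf3, Maff and Batf were followed in the mouse brain after experimental stroke. Every probe set annotated to Fos, Fosb, Fosl1, Fosl2, Jun, Junb, Jund, Atf3, Maff or Batf alone was taken, whatever its values. This gave 10 genes of 18193 on the array, with 14 of the 45037 probe sets tested. Fosl1, Fosl2, Jun and Jund have 2 probe sets each and the other 6 genes have 1. Fos (chr12:85473890-85477274, GRCm38.p6) and Batf (chr12:85686720-85709087) lie on the same chromosome, and so do Junb and Jund, on chromosome 8.

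All mice were male and on the FVB background, and differed in genotype (beta2 adrenergic receptor knockout or wild-type) and in surgery. Knockout mice gave 7 arrays after middle cerebral artery occlusion (MCAO, which stops the blood supply of part of a hemisphere), 3 after sham surgery and 7 without surgery (naive). Wild type mice gave 7, 3 and 8 arrays in the same order. RNA came from the ischemic hemisphere after MCAO and from the hemisphere of the same side after sham surgery, 24 h after the operation, so a whole hemisphere was measured and not the infarct alone. In such bulk tissue, fewer cells of a type and less RNA per cell cannot be told apart. It is not stated in the labels that each array is 1 animal, so p-values measure the spread between arrays, which may be technical.

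Fos proteins (Fos, Fosb, Fosl1, Fosl2) cannot pair with each other and bind DNA as partners of Jun, Junb or Jund, while Jun proteins can also pair among themselves. The genes of the families are activated by MAP kinases and calcium signals; Fos, Fosb and Junb are classical immediate early genes, switched on within minutes of a stimulus and soon switched off. Atf3 is a related leucine zipper protein that pairs with Jun and is a widely used marker of injured neurons. Maff is a small Maf protein without an activation domain of its own, and Batf pairs with Jun in place of Fos, best known from lymphocytes.

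Promoter windows of RefSeq (GRCm38.p6, from 250 bases before to 50 after a listed start, which is not always the first base of the gene) were found for 9 of the 10 genes, 11 windows in all. Those of Atf3, Jun, Fos and Maff are shown because these genes rose after MCAO and because AP-1 and Atf proteins are known to act on each other's promoters. Capitals mark the motif TGACNTCA, the cyclic AMP and Atf type of element, or its first part TGACG, searched on both strands, where CGTCA is TGACG on the other strand and TGACG can lie within TGACNTCA.
Atf3, chr1:191183284-191183583, minus strand: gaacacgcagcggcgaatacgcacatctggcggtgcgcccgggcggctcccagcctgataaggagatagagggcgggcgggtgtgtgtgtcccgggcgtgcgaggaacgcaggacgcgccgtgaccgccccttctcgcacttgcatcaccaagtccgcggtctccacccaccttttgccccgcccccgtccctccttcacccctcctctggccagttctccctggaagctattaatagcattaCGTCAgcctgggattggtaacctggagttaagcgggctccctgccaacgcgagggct
Jun, chr4:95052173-95052472, minus strand: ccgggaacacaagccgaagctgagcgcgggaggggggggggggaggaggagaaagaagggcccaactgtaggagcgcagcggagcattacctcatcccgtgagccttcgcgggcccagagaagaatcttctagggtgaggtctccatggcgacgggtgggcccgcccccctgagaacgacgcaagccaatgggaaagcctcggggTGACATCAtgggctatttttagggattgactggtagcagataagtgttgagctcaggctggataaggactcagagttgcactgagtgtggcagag
Fos, chr12:85473640-85473939, plus strand: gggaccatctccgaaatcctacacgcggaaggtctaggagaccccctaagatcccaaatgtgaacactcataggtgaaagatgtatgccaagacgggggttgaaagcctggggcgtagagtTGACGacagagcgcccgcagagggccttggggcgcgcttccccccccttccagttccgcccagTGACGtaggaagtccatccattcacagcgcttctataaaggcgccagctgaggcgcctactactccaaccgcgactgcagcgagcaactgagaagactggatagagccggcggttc
Maff, chr15:79347270-79347569, plus strand: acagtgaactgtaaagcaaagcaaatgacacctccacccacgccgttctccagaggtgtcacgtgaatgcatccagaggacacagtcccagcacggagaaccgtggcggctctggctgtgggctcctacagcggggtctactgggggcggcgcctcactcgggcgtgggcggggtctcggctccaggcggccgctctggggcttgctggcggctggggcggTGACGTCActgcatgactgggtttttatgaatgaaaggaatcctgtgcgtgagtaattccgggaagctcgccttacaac
TGACNTCA was present in 3 of the 11 windows, those of Jun and of 2 of the 3 starts of Maff, against 8.83% of 32851 windows of all genes. Its first base lay at position -45 from the start in Jun and at -29 in the Maff window shown. TGACG was in 7 windows of 6 genes (20.81% of all windows), at -129 and -66 in Fos and on the other strand at -7 in Atf3. The classical AP-1 motif TGANTCA was in 0 of 11 windows (7.81% of all windows), and the serum response element was in 0 of 11 (1.63%). These are letter matches in a short window and show no binding.

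Some arrays stood apart before any comparison. Knockout MCAO arrays 2 and 5 had a difference between the 3 prime and 5 prime Gapdh control probe sets, a sign of RNA quality, of 0.38 and 1.18 on the log2 scale, against -0.27 to 0.00 on the other surgery arrays, and correlated with each other at 0.997. The matching actin difference did not set arrays 2 and 5 apart. It was 1.15 and 0.99 on them, within the 0.43 to 1.75 of the other knockout MCAO arrays. Values without these arrays are given for the results they moved. Arrays 1 and 6 of knockout MCAO correlated at 0.997 and arrays 1 and 2 of wild type MCAO at 0.998. Knockout sham arrays had an actin 3 prime minus 5 prime difference of 1.60 to 1.76 and wild type sham arrays one of 0.86 to 1.01. Neuronal, glial and vascular markers were measured in every group; the mean log2 signal of 8 neuronal markers lay between 11.75 and 12.43 on the surgery arrays.

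After MCAO, Atf3, Fosl1, Maff and Jun rose in both genotypes. In knockout mice 8 of the 14 probe sets were called, 7 higher and 1 lower, at an adjusted p under 0.05 in limma with Benjamini-Hochberg adjustment over all probe sets. Over all probe sets 18.7% were called in this comparison, 10.8% higher and 7.94% lower. In wild type mice 8 of 14 were called, all higher, against 10.7% of all probe sets, 5.11% higher and 5.59% lower. The median difference of the 14 was 0.86 in knockout and 0.83 in wild type mice on the log2 scale, against -0.06 and 0.03 over all probe sets. In 6 of 14 probe sets in knockout and 9 of 14 in wild type mice the MCAO and sham arrays did not overlap, against 20.9% and 16.5% of all probe sets.

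**Figure D1:**
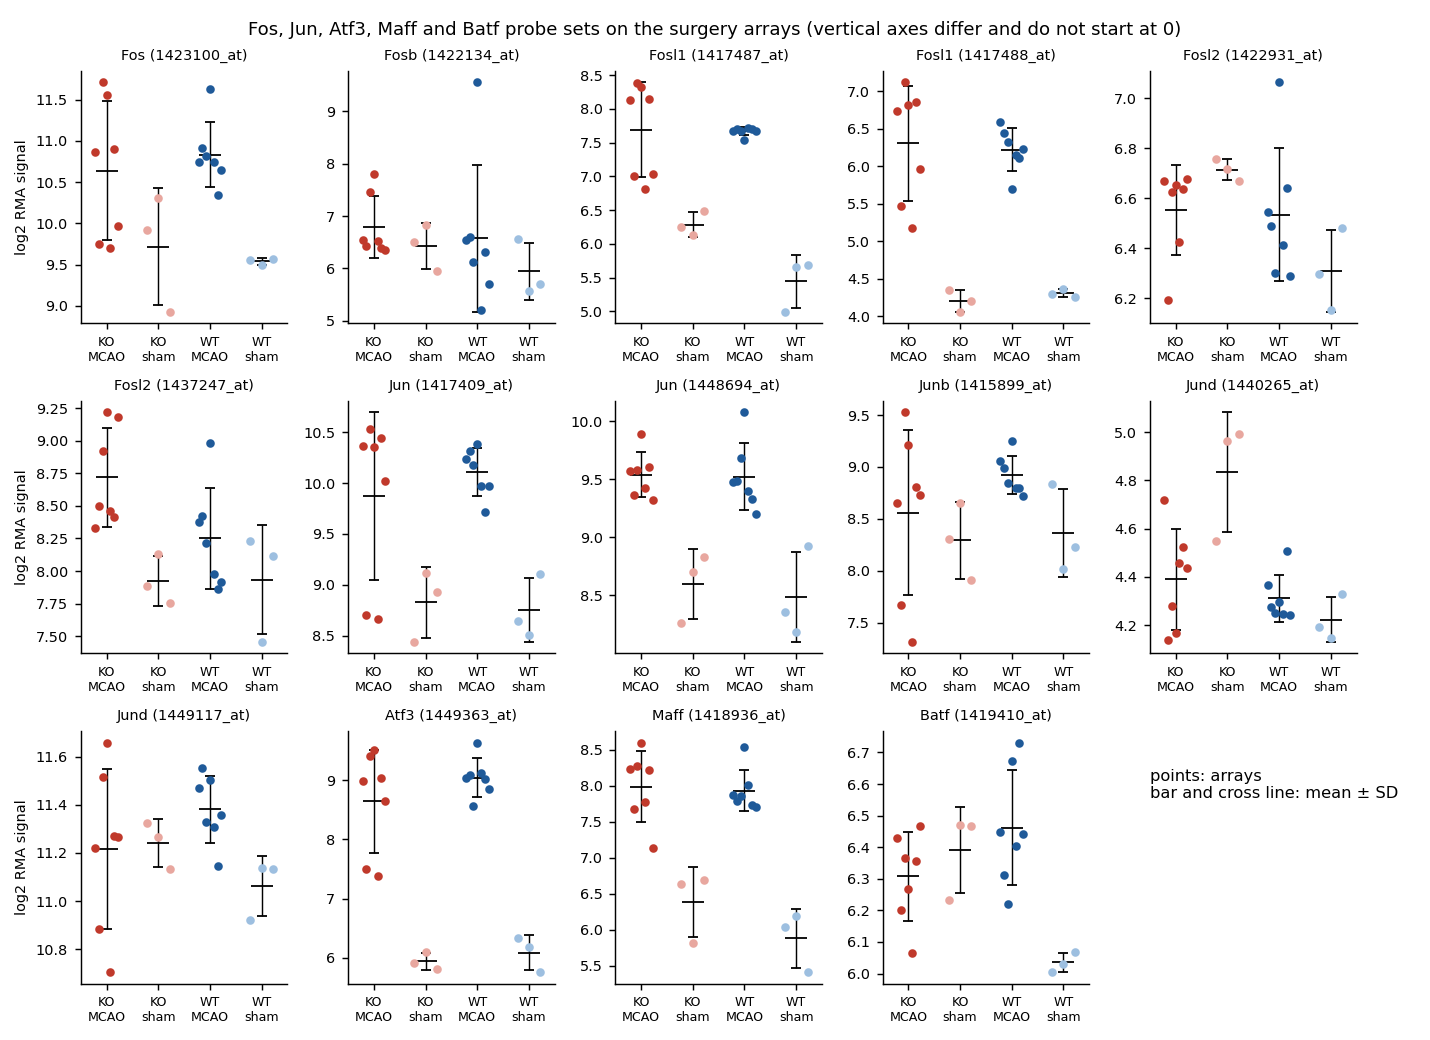
Log2 RMA signal (vertical axes, a different range in each panel) of the 14 probe sets on the 20 surgery arrays, in the groups knockout MCAO, knockout sham, wild type MCAO and wild type sham; points are arrays and bars the mean ± SD. For Atf3 the MCAO arrays lie between 7.39 and 9.63 and the sham arrays between 5.76 and 6.33.

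Atf3 (1449363_at; chr1:191170296-191183333, minus strand, GRCm38.p6) gave the largest rise of the 14 probe sets in both genotypes. In knockout mice its log2 signal was 8.99, 7.504, 9.41, 9.51, 7.39, 9.03 and 8.65 on MCAO arrays 1 to 7, against 5.91, 6.10 and 5.82 on sham arrays. In wild type mice it was 9.03, 9.08, 8.56, 9.63, 9.11, 9.02 and 8.86 on MCAO arrays 1 to 7, against 6.33, 6.18 and 5.76 on sham arrays. No MCAO array overlapped a sham array in either genotype, and the lowest MCAO values, on knockout arrays 2 and 5, were still above every sham value. The difference was 2.70 in knockout (SE 0.36, adjusted p = 4.02e-05), which is 6.49-fold, and 2.95 in wild type mice (SE 0.36, adjusted p = 2.95e-05), 7.75-fold. The interaction, the knockout change minus the wild type change, was -0.25 (95% confidence interval -1.31 to 0.80, adjusted p = 0.761).

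Jun, the central AP-1 partner and a target of the JNK kinases, rose on both of its probe sets. Jun 1448694_at ran from 9.32 to 9.89, with a median of 9.57, on knockout MCAO arrays, against 8.26, 8.70 and 8.83 on knockout sham arrays. On wild type MCAO arrays it ran from 9.20 to 10.08, median 9.48, against 8.36, 8.18 and 8.92 on wild type sham arrays. The groups did not overlap in either genotype. The rise was 0.94 in knockout (SE 0.18, adjusted p = 0.0011) and 1.03 in wild type mice (SE 0.18, adjusted p = 0.000795).

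Jun 1417409_at had 10.37, 8.71, 10.53, 10.35, 8.67, 10.45 and 10.02 on knockout MCAO arrays 1 to 7, against 8.44, 9.11 and 8.93 on knockout sham arrays. Here knockout MCAO arrays 2 and 5 fell within the sham range, unlike on the other Jun probe set. Wild type MCAO arrays ran from 9.71 to 10.38, median 10.18, against 8.65, 8.50 and 9.11 on wild type sham arrays, with no overlap. The difference was 1.04 in knockout (SE 0.34, adjusted p = 0.0381) and 1.36 in wild type mice (SE 0.34, adjusted p = 0.0137). The knockout call was lost without any 1 of the 3 sham arrays, with adjusted p-values between 0.071 and 0.157, and without MCAO array 1, 3, 4, 6 or 7 (0.0503 to 0.0682). The wild type call was lost without sham array 1 (adjusted p = 0.0682) or 2 (0.075).

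Junb and Jund, the other Jun genes, gave 1 call in all after MCAO, on a dim Jund probe set in knockout mice. Junb (1415899_at) ran from 7.31 to 9.53, median 8.73, on knockout MCAO arrays, against 8.31, 8.66 and 7.91 on knockout sham arrays. Wild type values ran from 8.72 to 9.25, median 8.85, on MCAO arrays, against 8.84, 8.02 and 8.23 on wild type sham arrays. Both pairs of groups overlapped, and the differences of 0.27 and 0.56 were not called (adjusted p = 0.592 and 0.298). The lowest 2 knockout MCAO values, 7.67 and 7.31, were those of arrays 2 and 5, and without these arrays Junb rose by 0.69 in knockout mice (adjusted p = 0.0316).

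Jund, which many cells express without stimulation, has 2 probe sets that gave different results. Jund 1449117_at ran from 10.71 to 11.66, median 11.27, on knockout MCAO arrays, against 11.32, 11.27 and 11.13 on knockout sham arrays. It ran from 11.15 to 11.55, median 11.36, on wild type MCAO arrays, against 10.92, 11.14 and 11.13 on wild type sham arrays. It was called in neither genotype (-0.02, adjusted p = 0.925, and 0.32, adjusted p = 0.188), although the wild type groups did not overlap. Jund 1440265_at, among the dimmest 30% of probe sets, fell by 0.45 in knockout mice (SE 0.12, adjusted p = 0.0137), with 4.14 to 4.72 on MCAO arrays against 4.55, 4.96 and 4.99 on sham arrays. In wild type mice the same probe set ran from 4.24 to 4.51 on MCAO arrays, against 4.19, 4.15 and 4.33 on sham arrays, and was not called (0.09, adjusted p = 0.67). The knockout call was lost without sham array 2 (adjusted p = 0.0927) or 3 (0.106).

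In the Fos family Fosl1, which codes for Fra-1, gave the clearest rise. Fosl1 1417488_at had 6.74, 5.47, 7.12, 6.82, 5.17, 6.85 and 5.96 on knockout MCAO arrays 1 to 7, against 4.35, 4.06 and 4.20 on knockout sham arrays. On wild type MCAO arrays it had 6.59, 6.45, 6.33, 5.69, 6.16, 6.11 and 6.23, against 4.30, 4.36 and 4.26 on wild type sham arrays. The lowest MCAO array of each genotype stood more than the whole range of its sham arrays above them. The rise was 2.10 in knockout (SE 0.31, adjusted p = 0.000126) and 1.92 in wild type mice (SE 0.31, adjusted p = 0.00053).

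The second Fosl1 probe set, 1417487_at, rose by 1.41 in knockout (SE 0.29, adjusted p = 0.00193) and by 2.22 in wild type mice (SE 0.29, adjusted p = 5.07e-05), again with no overlap. Its values ran from 6.82 to 8.38, median 8.14, on knockout MCAO arrays, against 6.25, 6.12 and 6.49 on knockout sham arrays. The wild type MCAO arrays lay close together, from 7.54 to 7.71, against 4.99, 5.66 and 5.69 on wild type sham arrays. The interaction was -0.81 (95% confidence interval -1.65 to 0.03, adjusted p = 0.186) on this probe set and 0.18 on the other (-0.74 to 1.11, adjusted p = 0.804).

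Fos itself (1423100_at), the name-giving member of its family, had 10.87, 9.75, 11.71, 11.56, 9.70, 10.90 and 9.96 on knockout MCAO arrays 1 to 7, against 9.92, 10.31 and 8.93 on knockout sham arrays. On wild type MCAO arrays it had 10.75, 10.91, 10.82, 11.63, 10.75, 10.34 and 10.64, against 9.56, 9.49 and 9.57 on wild type sham arrays. The knockout groups overlapped, with arrays 2, 5 and 7 inside the sham range, and the wild type groups did not. Fos rose by 1.30 in wild type mice (SE 0.38, adjusted p = 0.0343); its difference in knockout mice was 0.92 (SE 0.38, adjusted p = 0.0957) and was not called. A test of the difference between these changes made no call (interaction -0.38, 95% confidence interval -1.51 to 0.75, adjusted p = 0.667).

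The Fos calls depended on single arrays. The wild type call was lost without any 1 of the 3 sham arrays (adjusted p 0.0996 to 0.107) or without MCAO array 4 (0.0567). In knockout mice Fos was called without MCAO arrays 2 and 5, at 1.28 (adjusted p = 0.0149), and with the Gapdh difference as a covariate, at 1.27 (adjusted p = 0.0264).

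Fosb (1422134_at), an immediate early gene like Fos, ran from 6.36 to 7.80, median 6.52, on knockout MCAO arrays, against 6.51, 6.82 and 5.95 on sham arrays. On wild type MCAO arrays it had 6.54, 6.59, 6.12, 9.55, 5.21, 6.31 and 5.70, against 6.57, 5.57 and 5.70 on sham arrays. Wild type array 4 was far above the others, both pairs of groups overlapped, and neither difference was called (0.36, adjusted p = 0.692, and 0.63, adjusted p = 0.523).

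Fosl2, which codes for Fra-2, gave different results on its 2 probe sets. Fosl2 1437247_at ran from 8.33 to 9.22, median 8.50, on knockout MCAO arrays, above all sham arrays of that genotype at 7.88, 8.13 and 7.75. It rose by 0.80 in knockout mice (SE 0.23, adjusted p = 0.0229), but the call was lost without sham array 1 (adjusted p = 0.0668) or 3 (0.118). In wild type mice it ran from 7.87 to 8.98, median 8.21, on MCAO arrays, against 8.23, 7.46 and 8.12 on sham arrays, and was not called (0.32, adjusted p = 0.41). Fosl2 1422931_at was called in neither genotype, with -0.16 in knockout (adjusted p = 0.423) and 0.23 in wild type mice (adjusted p = 0.318).

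Maff (1418936_at) had 8.24, 7.68, 8.27, 8.60, 7.77, 8.21 and 7.13 on knockout MCAO arrays 1 to 7, against 6.64, 5.82 and 6.68 on knockout sham arrays. On wild type MCAO arrays it ran from 7.71 to 8.53, median 7.86, against 6.04, 6.18 and 5.41 on wild type sham arrays. The groups did not overlap in either genotype. The rise was 1.61 in knockout (SE 0.26, adjusted p = 0.000277) and 2.05 in wild type mice (SE 0.26, adjusted p = 4.48e-05).

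Batf (1419410_at) was the 1 member whose change after MCAO was called as different between the genotypes, against 7.41% of all probe sets, 3.1% with a higher and 4.31% with a lower change in knockout mice. It had 6.43, 6.20, 6.37, 6.27, 6.07, 6.36 and 6.47 on knockout MCAO arrays, against 6.23, 6.47 and 6.47 on knockout sham arrays. Wild type MCAO arrays had 6.45, 6.31, 6.22, 6.67, 6.41, 6.73 and 6.44, against 6.01, 6.03 and 6.07 on wild type sham arrays. The knockout groups overlapped (-0.08, adjusted p = 0.614), and Batf rose by 0.43 in wild type mice (SE 0.11, adjusted p = 0.0154). Its knockout minus wild type difference was 0.36 after sham surgery and -0.15 after MCAO, neither called (limma adjusted p = 0.104 and 0.355). The sham groups did not overlap, as on 39.2% of all probe sets. The interaction thus holds a sham difference as well as one after MCAO. The interaction of -0.51 (SE 0.15) had an adjusted p of 0.049 and lost its call on median-centred arrays, without knockout MCAO arrays 2 and 5 (adjusted p = 0.0986) and without any 1 of the 3 wild type sham arrays (0.0745 to 0.112). The wild type rise also lost its call without any 1 of these sham arrays (0.0511 to 0.0716).

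**Figure D2:**
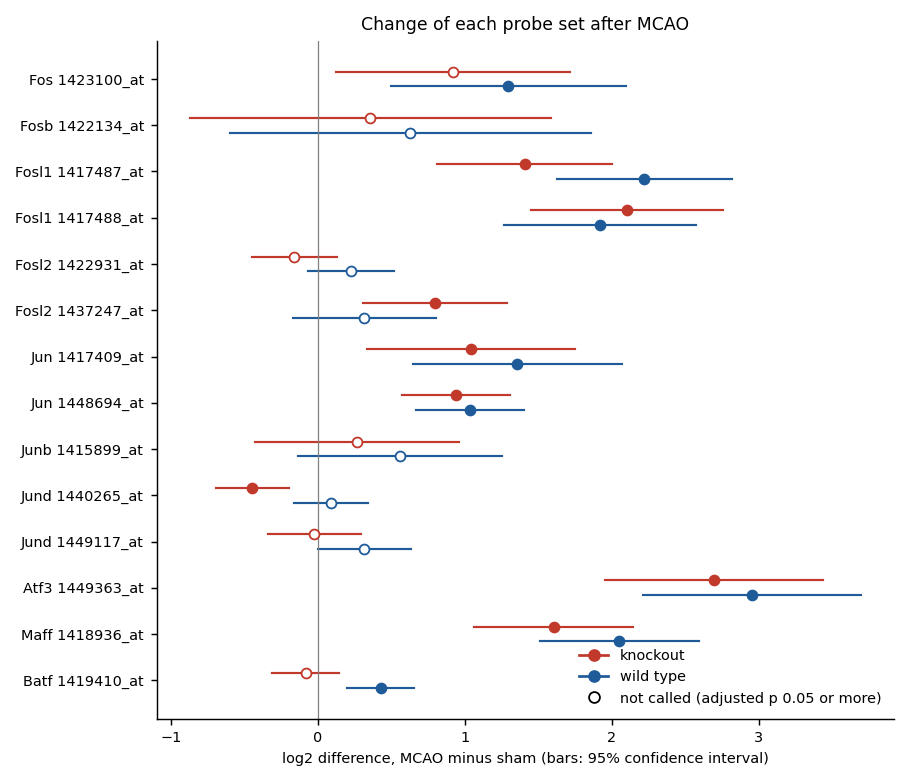
Log2 difference of MCAO minus sham (horizontal axis) for each of the 14 probe sets, knockout above wild type, with bars for the 95% confidence interval; filled points were called at an adjusted p under 0.05. Atf3, both Fosl1 probe sets, both Jun probe sets and Maff are filled in both genotypes.

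The calls of Atf3, Maff, both Fosl1 probe sets and Jun 1448694_at were kept in both genotypes under every setting tried, except that the knockout rise of Jun 1448694_at was under 2-fold. Taken array by array over all 14 probe sets, wild type MCAO arrays were above all wild type sham arrays on 9 to 13 of 14. Knockout MCAO arrays were above all knockout sham arrays on 6 to 11 of 14, with 6 on each of arrays 2 and 5. The matching share over all probe sets was not counted, so these counts describe the arrays and cannot set the members apart from other probe sets. Over the 14 probe sets the median difference from the sham mean was 0.01 and 0.04 on knockout arrays 2 and 5, against 0.58 to 1.33 on the other knockout MCAO arrays and 0.56 to 1.49 on the wild type ones. Without arrays 2 and 5, left out after the data were seen, Fos (1.28) and Junb (0.69) were also called higher in knockout mice. Jund 1440265_at was still called lower (-0.41). The rise of Atf3 in knockout mice was then 3.18 (adjusted p = 2.16e-08), that of Jun 1417409_at 1.52 (adjusted p = 1.46e-05) and those of Fosl1 2.498 and 1.72. The Atf3 interaction was then 0.22 (95% confidence interval -0.37 to 0.82, adjusted p = 0.636), the sign turned from that with all arrays. In all, 3 of 14 interactions, those of Atf3, Jun 1417409_at and Junb, and 5 of 14 differences between the genotypes after MCAO turned their sign, none of them called with or without these arrays.

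**Figure D3:**
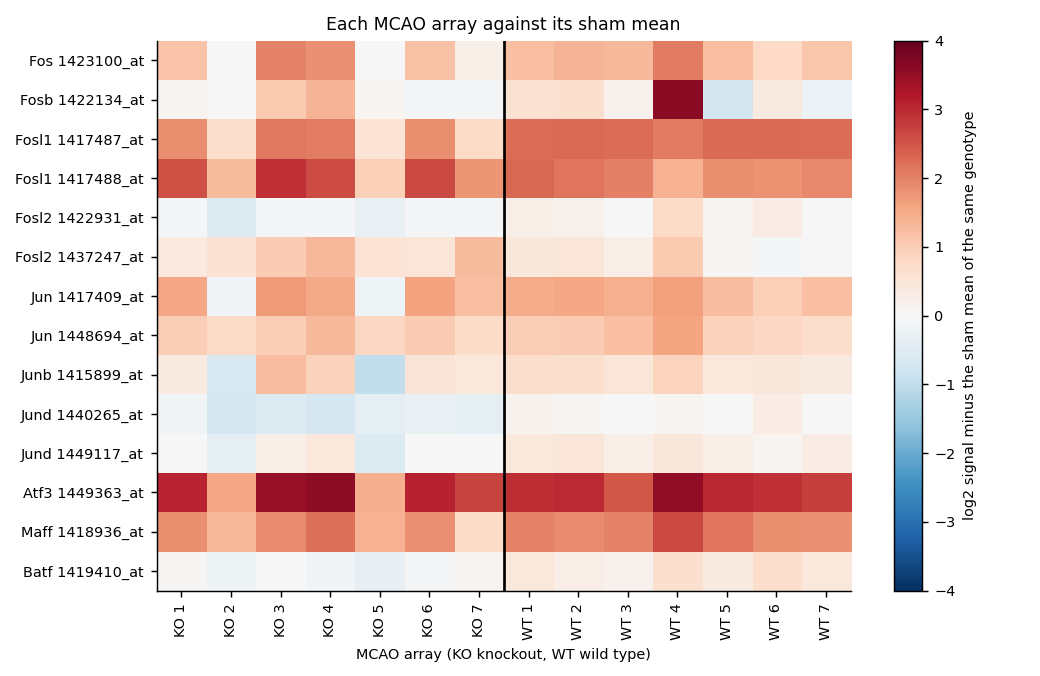
Log2 signal of each MCAO array minus the sham mean of its genotype (colour, blue for lower and red for higher) for the 14 probe sets (rows) and 14 MCAO arrays (columns, knockout left of wild type). Knockout arrays 2 and 5 are paler for Atf3, Fosl1, Fos and Jun 1417409_at than the other knockout arrays, and wild type array 4 is dark for Fosb.

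Within the groups, Fos was also set against each other gene over arrays, 36 relations in all. Of these 4 passed adjustment for both Pearson's r and Spearman's rho by exact permutation tests, those with Fosl1, Junb, Jund and Atf3 on knockout MCAO arrays. Near-identical pairs leave 5 distinct arrays there, fewer than the 6 needed for a correlation, so no relation is drawn. Fosl1, Jund and Atf3 had a negative r with Fos on knockout naive arrays, where near-identical arrays leave 2. The 1 negative r of Junb, -0.57 on wild type naive arrays, was 0.95 without wild type naive array 6.

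The genes whose signal was most like that of each member over the 20 surgery arrays, among 18192 other genes, were found by Pearson's r, as a description; arrays share surgery and genotype. For Atf3 they were the chemokine gene Ccl3 (0.98), the cell cycle inhibitor Cdkn1a (0.98) and Slc15a3 (0.97), and for Fosl1 Capg (0.97), the scavenger receptor gene Msr1 (0.97) and Gpr84 (0.96). For Maff they were Flna (0.96), Litaf (0.96) and Ccl6 (0.96). For Jun they were the chemokine gene Ccl2 (0.93), the cytokine gene Il6 (0.92) and Adam8 (0.92). Fos was most like Ier2 (0.95), another immediate early gene, then Avpr1a (0.94) and Card19 (0.91). The closest genes of the others reached 0.91 for Fosl2 (Gorasp2), 0.92 for Junb (Rnd1), 0.88 for Fosb (Ndrg1), 0.86 for Jund (Lmnb1) and 0.88 for Batf (Slco2a1).

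No member was called between the genotypes after MCAO. In limma 0 of 14 were called, against 0.131% of all probe sets, 0.0733% higher and 0.0577% lower. The probe set with the smallest p, Fosl2 1437247_at, was 0.47 higher in knockout mice (limma adjusted p = 0.214). The groups overlapped on all 14 probe sets, while 0.366% of all probe sets did not overlap. The 95% confidence interval of the knockout minus wild type difference was -0.98 to 0.17 for Atf3, -0.82 to 0.42 for Fos, -0.36 to 0.48 for Maff and -0.27 to 0.30 for Jun 1448694_at. Differences within these bounds are not excluded. Without knockout MCAO arrays 2 and 5 the difference was 0.08 for Atf3 (-0.27 to 0.42) and 0.17 for Fos (-0.40 to 0.73), both of the opposite sign, and 0 of 14 were called.

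After sham surgery 1 of 14 probe sets was called, against 4.67% of all probe sets, 2.58% higher and 2.1% lower. Jund 1440265_at was 0.61 higher in knockout mice (SE 0.14, adjusted p = 0.0243), with 4.55, 4.96 and 4.99 against 4.19, 4.15 and 4.33 in wild type mice. The call was lost without knockout sham array 2 (adjusted p = 0.1) or 3 (0.148), without any 1 of the 3 wild type sham arrays (0.0545 to 0.0938) and with the actin difference, which moves with genotype here, as a covariate (0.161). The knockout and wild type sham arrays did not overlap on 4 of 14 probe sets, against 39.2% of all probe sets. Beside this, 2 of 6 lymphocyte markers and 1 of 7 infiltrating myeloid markers were higher, and 1 of 5 microglial and 1 of 5 oligodendrocyte markers lower, in knockout sham mice, where 2.92% of all genes were higher and 2.08% lower; their part was not tested.

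Genes linked to AP-1 were counted over fixed lists, each gene by its probe set with the highest mean. Of all 18193 genes taken in this way, 14.9% rose and 7.59% fell in knockout mice, and 7.41% rose and 6.26% fell in wild type mice; the interaction was called higher for 3.39% and lower for 4.64%, and the difference between the genotypes after MCAO for 0.044% and 0.033%. The counts of each list stand beside these shares, and some lie near them. Of 13 measured genes known as AP-1 targets, 8 rose in knockout and 9 in wild type mice and 0 fell; the median difference was 1.47 and 1.97, against 0.00 and 0.05 over all genes. The hyaluronan receptor gene Cd44 rose by 4.35 in knockout and 3.72 in wild type mice (adjusted p = 1.84e-08 and 1.68e-07), although 1 of its other probe sets had the opposite sign in knockout mice. The protease inhibitor gene Timp1 rose by 3.32 and 4.07 (adjusted p = 2.16e-05 and 4.43e-06), and the matrix protease gene Mmp3 by 3.62 and 3.74. Hmox1, which codes for the haem-degrading enzyme heme oxygenase, rose by 3.38 in both.

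Among 18 other leucine zipper genes, 8 rose and 0 fell in knockout mice, and 7 rose and 2 fell in wild type mice (medians 0.37 and 0.30). Cebpd, which codes for an acute-phase regulator, rose by 3.89 in knockout and 3.33 in wild type mice (adjusted p = 2.13e-08 and 2.08e-07), and Cebpb by 2.03 and 1.75. Bach1, a partner of small Maf proteins, rose by 1.38 and 0.83, and Nfe2l2, the regulator of oxidative stress genes, by 1.38 and 0.81. The 2 that fell in wild type mice were Jdp2 (-0.72) and Maf (-0.48), named after their values were seen. Maf was also the list's 1 gene with a called interaction (0.84, adjusted p = 0.0272), though 2 of its 6 probe sets pointed the other way.

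The other immediate early genes moved in both directions: 10 of 21 rose and 3 fell in knockout mice, and 9 rose and 4 fell in wild type mice. Zfp36, whose protein destabilises cytokine messages, rose by 2.30 in knockout and 2.58 in wild type mice, Myc by 1.28 and 1.41, and Klf4 by 2.45 and 1.74. Lower were Egr4 (-1.02 and -0.77), Nr4a1 (-0.9955 and -1.08) and Nr4a3 (-0.87 and -1.39) in both genotypes and Egr1 (-0.76) in wild type mice, named after their values were seen except for Nr4a3. In wild type mice 2 of the other Nr4a3 probe sets pointed the other way.

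Of 10 nerve injury genes often measured with Atf3, 6 rose and 2 fell in knockout mice, and 4 rose and 1 fell in wild type mice. The small heat shock gene Hspb1 rose by 4.05 in knockout and 4.16 in wild type mice (adjusted p = 2.4e-10 and 2.24e-10), Gadd45b by 1.61 and 2.22 and the neuropeptide gene Gal by 1.65 and 1.83. The growth cone gene Gap43 fell by 0.43 and 0.69, and Stmn4 fell by 0.34 in knockout mice.

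Upstream of AP-1, 6 of 17 kinase and serum response genes rose and 0 fell in knockout mice, and 3 rose and 4 fell in wild type mice. Map3k8 rose by 0.85 in knockout and 0.94 in wild type mice, Map2k3 by 0.80 and 0.65, and Elk3, a partner of serum response factor, by 1.98 and 1.24. Srf, which codes for that factor, fell by 0.50 in wild type mice and its interaction was called (0.58, adjusted p = 0.0332), but 1 of its 2 probe sets pointed the other way. The 3 others that fell in wild type mice were Map3k5 (-0.60), Mapk10 (-0.49) and Mapk8 (-0.46), the last 2 coding for JNK kinases, named after their values were seen. Of 9 MAP kinase phosphatases, 3 rose and 1 fell in knockout mice, and 4 rose and 2 fell in wild type mice. Dusp6, whose protein acts on ERK kinases, was the 1 gene of these lists called between the genotypes after MCAO, at 0.70 higher in knockout mice (adjusted p = 0.019), and its interaction was 0.75 (adjusted p = 0.042). Genes of these lists are given for the main fit alone. Over all probe sets, calls between the genotypes after MCAO were 59 in that fit and 5 to 1656 under other settings. Interaction calls were 3336 and 0 to 6638.

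**Figure D4:**
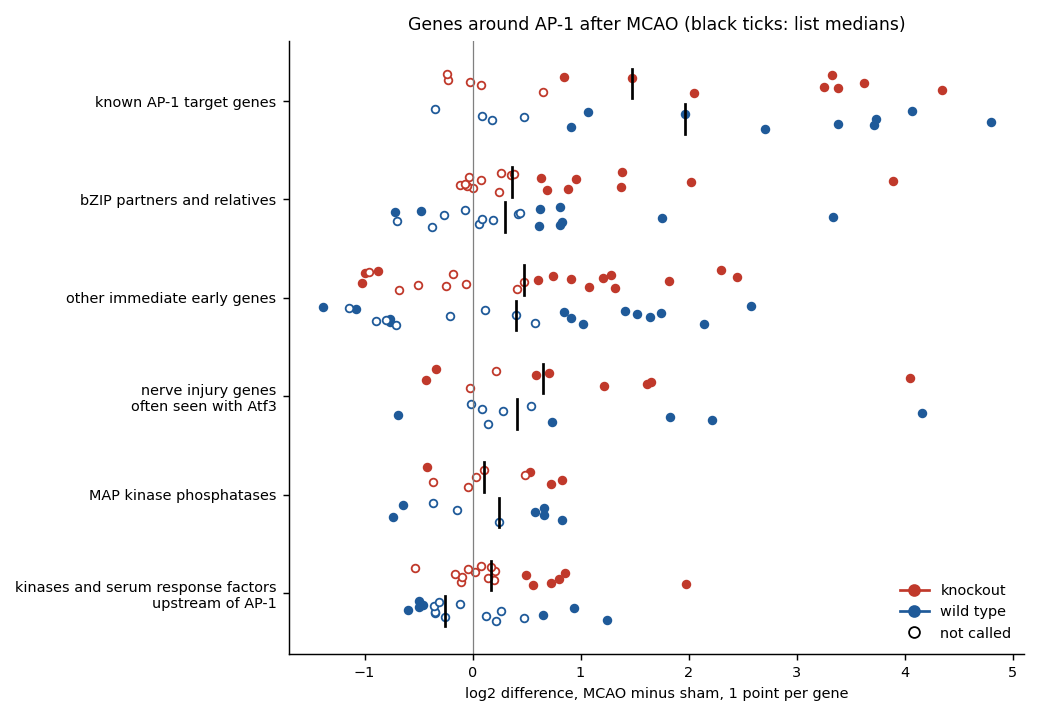
Log2 difference of MCAO minus sham (horizontal axis) for the genes of 6 lists around AP-1 (rows), knockout above wild type, 1 point per gene; filled points were called and black ticks are list medians. The AP-1 target genes have the highest medians, 1.47 and 1.97.

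Markers of other cells moved beside these changes, and their part in them was not tested. Several of the counts are near the shares of all genes called. Of 7 measured markers of infiltrating myeloid cells, 3 rose in knockout and 2 in wild type mice, and their mean log2 signal ran from 5.58 to 6.92 on knockout MCAO arrays against 5.56 to 5.76 on knockout sham arrays. It ran from 6.58 to 7.60 on wild type MCAO arrays against 5.48 to 5.57 on wild type sham arrays, and wild type MCAO array 4 was the highest. Of 6 endothelial markers 4 rose in knockout and 3 in wild type mice, and of 5 microglial markers 2 fell in each genotype. Of 4 striatal neuron markers 1 fell in knockout and 2 in wild type mice, but sham arrays differed widely. The mean log2 signal of these 4 was 11.15, 9.45 and 9.52 on knockout sham arrays and 10.93, 11.47 and 9.17 on wild type sham arrays. It ran from 8.63 to 9.96 on knockout and from 9.16 to 9.45 on wild type MCAO arrays, so some sham arrays lay at the MCAO level. The cause was not tested. Of 6 fibroblast markers 3 rose in knockout and 1 in wild type mice, of 6 astrocyte markers 2 rose in each, and of 5 oligodendrocyte markers 2 and 3 rose. Of 6 lymphocyte markers, the cells in which Batf is best known, 2 fell in knockout and 0 changed in wild type mice, and the interaction was called lower for 2; of 8 neuronal markers 0 changed in knockout and 1 fell in wild type mice. No marker of choroid plexus or of erythrocytes passed the test in either genotype.

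Naive arrays have their own normalization and are compared with each other alone. Pairs of knockout naive arrays shared 1743 to 2876 exactly equal values, pairs of wild type naive arrays 1 to 48, and pairs across the genotypes 0. Array medians were 7.02 to 7.05 in knockout and 6.87 to 6.94 in wild type mice. Genotype and separate processing of the naive groups therefore cannot be told apart. Wild type array 6 correlated at 0.80 to 0.83 with the other naive arrays, which correlated among themselves at 0.978 or more, and had a Gapdh 3 prime minus 5 prime difference of 3.51, against -0.23 to 0.15 on the others.

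In naive mice 4 of 14 probe sets were called, against 20.1% of all probe sets, 8.02% higher and 12.1% lower. Without wild type array 6, 7 of 14 were called, 5 higher and 2 lower, against 39.8% of all, 23.7% higher and 16.1% lower. Fosb ran from 6.67 to 8.68, median 7.11, in knockout and from 6.005 to 6.97, median 6.46, in wild type mice, a difference of 0.79 (SE 0.24, adjusted p = 0.0308; 0.72 and adjusted p = 0.0235 without array 6). Fosl2 1437247_at ran from 8.19 to 8.84 in knockout and from 6.93 to 8.26 in wild type mice, a difference of 0.56 (SE 0.17, adjusted p = 0.0297; 0.42 and adjusted p = 0.0024 without array 6). The knockout and wild type values of both overlapped.

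Atf3 was lower in knockout mice, at 5.04 to 5.59, median 5.32, against 5.38 to 6.39, median 5.70, in wild type mice (-0.46, SE 0.13, adjusted p = 0.0192; -0.37 and adjusted p = 0.00424 without array 6). Jund 1440265_at was lower too, at 4.80 to 5.21 in knockout against 5.23 to 5.89 in wild type mice (-0.51, SE 0.12, adjusted p = 0.00639). It was the 1 of 14 probe sets without overlap, against 11.8% of all probe sets. Both are among the dimmest 30% of probe sets on these arrays. Beside these, 4 of 7 infiltrating myeloid markers, S100a8, S100a9, Cd177 and Mpo, were lower in knockout naive mice, with a median of -0.38 over the 7, where 7.2% of all genes were higher and 9.05% lower. The mean log2 signal of these markers ran from 5.88 to 6.13 in knockout and from 6.31 to 7.04 in wild type mice. Of the other lists, 1 of 6 lymphocyte and 1 of 3 erythrocyte markers were also lower. Opposite in direction and without overlap were endothelial markers, at 8.12 to 8.20 in knockout against 7.40 to 7.97 in wild type mice. So were microglial (9.06 to 9.25 against 8.30 to 8.94) and fibroblast markers (8.59 to 8.64 against 8.16 to 8.47). The part of these markers was not tested. Without array 6, Fosl2 1422931_at (0.33, adjusted p = 0.000332), Jund 1449117_at (0.25, adjusted p = 0.0481) and Fosl1 1417487_at (0.21, adjusted p = 0.0491) were also called higher in knockout mice.

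These naive directions depended on the scaling. Centring each array on its median moved the median difference over all probe sets to -0.12 from 0.03. With it, 0 of 14 members were called higher and 4 lower in knockout mice, Atf3, Jund 1440265_at, Maff and Fosl1 1417488_at. Most calls over all probe sets were also lower with this centring, so this direction is not particular to the members. The share of all probe sets called lower with it is not given here, so the count of 4 cannot be weighed against it. With near-identical arrays counted once, 2 knockout and 6 wild type arrays were left and 0 of 14 were called. So few knockout arrays cannot show that there is no difference. Fos was not called, with 9.38 to 10.98 in knockout and 9.20 to 12.003 in wild type mice (0.29, adjusted p = 0.659), array 6 being the highest. Jun, Junb, Maff and Batf were not called either with or without array 6.

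**Figure D5:**
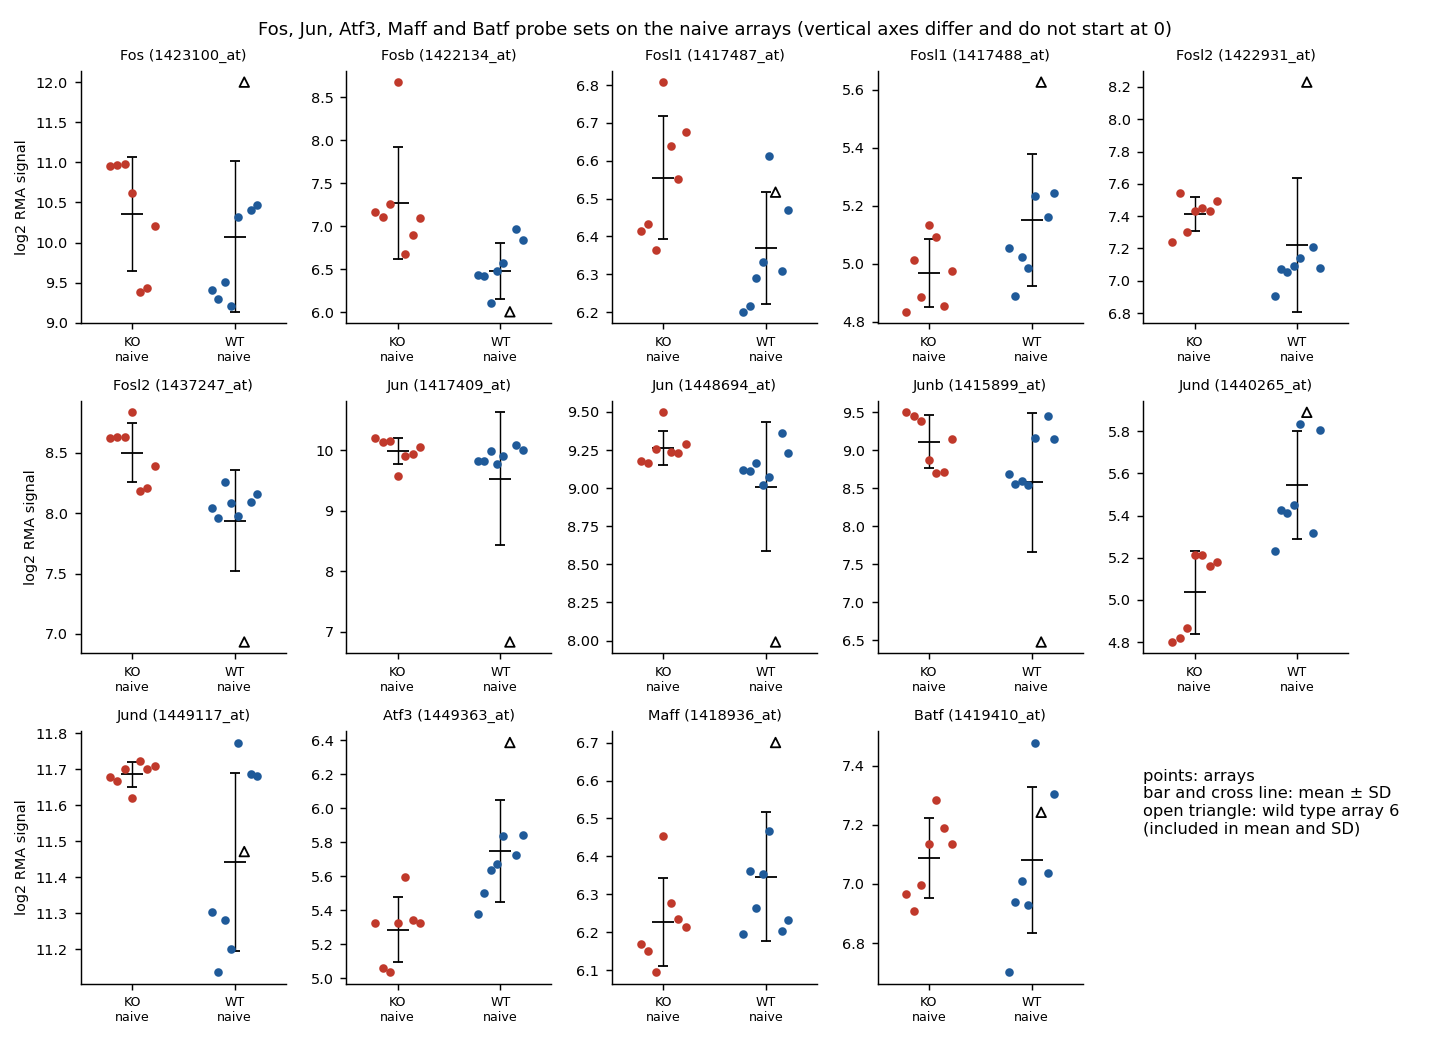
Log2 RMA signal (vertical axes, a different range in each panel) of the 14 probe sets on the 15 naive arrays, knockout left of wild type; points are arrays, bars the mean ± SD, and the open triangle is wild type array 6. Array 6 lies far below the other wild type arrays for Jun and Junb and far above them for Fos.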

How the data were processed

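RNA of 35 hemispheres' arrays was measured on Affymetrix mouse arrays. Deposited signals are on the log2 scale; the submitters' processing notes name RMA, with no version, and per the labels naive arrays were normalized independently. Of 45101 probe sets 64 controls were left out; 34945 had 1 gene symbol, and 34741 of these matched RefSeq by Entrez ID.

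With limma 3.58.1 under R 4.3.3, 1 linear model with moderated variances was fitted to the 20 surgery and 1 to the 15 naive arrays; p-values were Benjamini-Hochberg adjusted over 45037 probe sets and called under 0.05. The number of arrays limits precision. The members and lists were chosen with earlier results of these data known. All member probe sets are named, and from each list up to 4 genes with the smallest p per MCAO comparison and up to 2 in the others. The gene deleted in the knockout is not reported here. The fit was tested on simulated data. Replicate numbers were checked for pairing: correlations of same-numbered arrays ran from -0.21 to 0.47. Differently numbered arrays were not set beside them, so this cannot decide whether arrays pair. The main fit used no pairing. Alternatives covered probe set choice, prior, dim probe sets, scaling, weights, thresholds, RNA quality covariates, block and left-out arrays; counting near-identical arrays once, leaving out knockout MCAO arrays 2 and 5, and leaving out wild type naive array 6 with repeated quantile normalization were chosen after seeing the data.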

Additional observations from a re-analysis of the deposited data

Results flagged for a closer look

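In groups of 4 to 10 arrays, the highest or lowest array was set against Dixon's 95% limit, and 12 of 56 sets of values exceeded it. Chance gives about 1 in 20 where arrays are independent. Some arrays here are near-identical and the probe sets share arrays, so the count is a description. Of the 12 flagged, 7 were wild type naive array 6, the array with the Gapdh difference of 3.51. It was low for Junb (6.475, others from 8.54 to 9.45), Jun 1417409_at (6.83, others from 9.78 to 10.09), Jun 1448694_at (7.99, others from 9.02 to 9.36) and Fosl2 1437247_at (6.93, others from 7.96 to 8.26). It was high for Fosl2 1422931_at (8.23, others from 6.91 to 7.21), Fos (12.003, others from 9.20 to 10.47) and Atf3 (6.39, others from 5.38 to 5.84).

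Wild type MCAO array 4 exceeded the limit for 3 probe sets. Its actin 3 prime minus 5 prime difference was 1.70, against 0.39 to 0.99 on the other wild type MCAO arrays. The Gapdh difference of array 4, -0.15, lay within their range of -0.26 to -0.13. Its Fosb signal was 9.55 (others from 5.21 to 6.59), its Maff signal 8.53 (others from 7.71 to 8.00) and its Fosl1 1417487_at signal 7.54, below the others at 7.67 to 7.71. Knockout naive array 4 was high for Fosb (8.68, others from 6.67 to 7.26) and for Jun 1448694_at (9.50, others from 9.16 to 9.29).

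The change of Batf after MCAO differed between knockout and wild type mice by -0.51 in the interaction test (limma adjusted p = 0.049), a call that most other settings did not keep.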

How the results depend on the processing

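No member turned its direction while called under any alternative; of the single values recomputed, 2731 kept their side of the threshold, 107 lost a call and 36 gained one. Of 14 members, called in knockout mice after MCAO were 8, 5 of 10 with 1 probe set per gene and 4 of 10 with probe set means, where the paired probe sets of Jun and Fosl1 count once, and 5 with the actin covariate, adjusted p under 0.01, a 2-fold minimum, repeated quantile normalization or the replicate block (also 5 on the block's fewer arrays without it); without 1 array 5 to 8. In wild type mice there were 8, and 5 at adjusted p under 0.01; without 1 array 5 to 8. For the interaction 1 was called, 2 with array weights or probe set means, and 0 with either covariate, median centring, the intensity trend, no dim probe sets, quantile normalization, the stricter limits, the block or its arrays, near-identical arrays counted once, or without knockout MCAO arrays 2 and 5; without 1 array 0 to 2. Between the genotypes after MCAO 0 were called under all settings, and 0 to 0 without 1 array. After sham surgery 1 was called, 4 with array weights, 3 with the compared arrays alone or the block's arrays unblocked, 2 with the replicate block, and 0 with the actin covariate, the stricter limits or quantile normalization; without 1 array 0 to 1. It was also 0 with 1 probe set per gene or no dim probe sets, where the called Jund probe set is not tested. In naive mice 4 were called, 7 with either covariate or array weights, 2 with quantile normalization, 1 at adjusted p under 0.01, and 0 with a 2-fold minimum, no dim probe sets (which leaves out Atf3 and the called Jund probe set) or near-identical arrays counted once; without 1 array 2 to 7. The cause of these differences was not tested.

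With the block, Batf, Fosl2 1437247_at, Jun 1417409_at and Jund 1440265_at were not called after MCAO and Fosl1 1417487_at was called after sham surgery (0.84, adjusted p = 0.043), but all of these were so on the same fewer arrays without it. Against those arrays unblocked, the block added the call of Junb in wild type mice (0.60, adjusted p = 0.0351) and lost that of Fosl2 1422931_at after sham surgery. Over all probe sets, median centring moved the share of calls that were higher to 68.42% from 57.6% for knockout MCAO, to 66.13% from 41.79% for the interaction, to 68.42% from 55.93% between the genotypes after MCAO, to 44.63% from 55.15% after sham surgery (66.51% with quantile normalization) and to 10.9% from 39.91% in naive mice. Calls over all probe sets were 8429 for knockout MCAO (868 to 13589 over the other settings, 2845 with the block and 3643 on its arrays without it), 4816 for wild type MCAO (938 to 8506), 3336 for the interaction (0 to 6638, 2 with the block and 2 on its arrays without it), 59 between the genotypes after MCAO (5 to 1656), 2105 after sham surgery (3 to 12476) and 9046 in naive mice (8 to 19879). With 3 sham arrays per genotype, small changes are easily missed, and signal over background was not used here.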
